A study of Mus musculus with 9 samples.

Results

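The mitosis and kinetochore genes described here are 58 named mouse genes that act between the end of G2 and the division of the cell: cyclins and their kinase, mitotic kinases, the kinetochore, spindle motors, cytokinesis and chromosome condensation. They were chosen by symbol from what each gene is known to do, not from a cut on measured values, but with earlier results of these data known. The shares given below therefore describe this list and are not a test of it. All 58 were found among the 28965 gene rows. All 58 also lay above the minimum mean level used for testing, which left 15002 genes. The lowest of them was Ska1, at 240.0, 228 and 265 in the OA_T0 libraries, 190.1, 223 and 218 in the OA libraries and 201, 215 and 203 in the MDI libraries.

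Cells enter mitosis when cyclin B binds Cdk1 and Cdc25 phosphatases remove the inhibitory phosphates from the kinase. Condensins and topoisomerase II then compact the chromosomes, kinesins and spindle assembly factors build the spindle, and kinetochores attach each chromosome to microtubules. The spindle checkpoint holds back the anaphase-promoting complex until all are attached, after which securin and the cyclins are degraded and the cell divides. Confluent 3T3-L1 cells given an adipogenic cocktail re-enter the cell cycle before they differentiate, a step known as mitotic clonal expansion, so transcripts of these genes are abundant in such cultures during the early part of differentiation.

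RNA was measured in wild-type 3T3-L1, a line of mouse adipocyte precursors described by its labels as fibroblast. Every culture had been grown to confluence, left 2 days in the same medium, and then kept 24 h in a cocktail of dexamethasone and insulin, both at 0.1 µg/mL, with 30 µg/mL isobutylmethylxanthine. The OA_T0 libraries came from cells that also had 100 µM oleic acid bound to bovine serum albumin and 5 µM T0901317, which activates the liver X receptors (LXR). Cells of the OA libraries had the same oleic acid without T0901317, and those of the MDI libraries had the albumin vehicle. Each group held 3 libraries. The acid was tested as OA against MDI and the agonist, in the presence of the acid, as OA_T0 against OA. T0901317 without the acid, cells without the cocktail and other times were not analysed here. The labels do not say that replicates came from separate cultures, and p-values then measure only the spread between these libraries, which may be technical.

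The values are the authors' normalised read counts, which were not whole numbers, so they are named here as units. Estimated depth ranged from 18000000 to 59900000 fragments per library, and 3 fragments corresponded to 1.35 to 4.62 units, far below all 58 genes. The lowest depth was that of OA_T0 replicate 3 and the highest that of MDI replicate 1, with the others at 21400000 to 29300000. The part of depth in the results below was not tested. All 11 markers of adipocyte precursors passed the minimum level, as did 2 of 7 markers of mature adipocytes, Fabp4 and Lipe, and 2 of 9 of other cell types, Cd68 and Des. The precursor gene Pdgfra stood at 10780.0, 13738 and 10929 units in the OA_T0 libraries, 18137, 18160.0 and 18906 in the OA libraries and 12785, 12386 and 14657 in the MDI libraries. The 11 precursor markers did not move together. At an adjusted p below 0.05 in limma, 2 were higher in OA than in MDI (18.2%, against 3.43% of all genes tested) and 0 lower, while 5 had a fold change below 0. In OA_T0 against OA, 4 were higher (36.4%, against 8.27% of all) and 2, with Pdgfra, lower (18.2%, against 6.84%). The mature adipocyte genes Adipoq, Plin1, Cidec, Retn and Cfd were between 0 and 6.76 units in all libraries, within a few fragments of 0. Fabp4, a fatty acid carrier, and Lipe, a lipase, were measurable and differed between the groups. Fabp4 stood at 647, 740.0 and 596 units in the OA_T0 libraries, 1825, 1862 and 2383 in the OA libraries and 289, 381 and 452 in the MDI libraries, and gave a log2 fold change of 2.45 ± 0.14 (adjusted p = 4.57e-08) in OA against MDI, -1.61 ± 0.14 (adjusted p = 2.13e-06) in OA_T0 against OA and 0.84 ± 0.14 (adjusted p = 0.00412) in OA_T0 against MDI. Lipe stood at 139, 127 and 92.2 in the OA_T0 libraries, 359, 319.8 and 362 in the OA libraries and 130.05, 91.4 and 146 in the MDI libraries, and gave 1.52 ± 0.18 (adjusted p = 9.6e-05), -1.55 ± 0.18 (adjusted p = 3.52e-05) and -0.03 ± 0.18 (adjusted p = 0.95) in the same order. Log2 fold changes are given ± SE throughout, with adjusted p-values from limma. The 7 markers summed to 694.7 to 876 units in the OA_T0 libraries, 2199.5 to 2756 in the OA libraries and 434 to 609 in the MDI libraries.

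Of the markers of other cell types, the macrophage gene Adgre1 and the muscle gene Myog were at 0 in all 9 libraries. Cd68, a lysosomal protein abundant in macrophages, stood at 19.7, 38.2 and 30.8 units in the OA_T0 libraries, 17.9, 17.4 and 14 in the OA libraries and 16.2, 19.6 and 15.8 in the MDI libraries, and gave -0.06 ± 0.32 (adjusted p = 0.946) in OA against MDI and 0.77 ± 0.32 (adjusted p = 0.125) in OA_T0 against OA. Des, the muscle filament desmin, stood at 60, 52.3 and 58.5 in the OA_T0 libraries, 92.8, 84.5 and 75.3 in the OA libraries and 50.4, 65.3 and 64.2 in the MDI libraries, and gave 0.49 ± 0.18 (adjusted p = 0.135) and -0.55 ± 0.18 (adjusted p = 0.055) in the same comparisons. All Des values in OA were above those in OA_T0 and MDI, but neither gene passed. The 9 markers together summed to 83.8 to 98.6 units in the OA_T0 libraries, 100.4 to 123 in the OA libraries and 76.5 to 97.9 in the MDI libraries. The part of these markers in the results below was not tested. The ribosomal RNA gene CT010467.1 made up 0.649% of the total in OA replicate 1 and 3.06% in OA_T0 replicate 3, against 4.40% to 5.96% in the others. In a bulk sample, fewer cells in mitosis and less of a transcript per cell cannot be told apart.

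Promoters of mitotic genes are known for a pair of elements. One is the cell cycle genes homology region, or CHR, through which MuvB complexes repress these genes early in the cycle and activate them later, and the other is the CCAAT box bound by NF-Y. RefSeq promoters of build GRCm38.p6, from 250 bases before to 50 bases after the start, were found for 47 of the 58 genes. The deposited values are tied to gene symbols and the submitters' processing notes name the older build mm9, so sequences were matched by symbol. The CHR was searched as TTTGAA or TTCGAA on either strand, and the NF-Y element as CCAAT on either strand. The end letters of a CHR match and of a CCAAT match can be shared where they adjoin.

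Of 26 well-known members of different roles, Ccna2, Cdc25c, Aurkb, Ska1, Kif20a, Tpx2 and Foxm1 had no promoter found and were not searched. Among the rest, 13 had a window that held both elements. The 8 promoters below are those of the genes among them with the smallest adjusted p in OA against MDI. They are the corona protein Cenpf, cyclin B2, the kinases Aurka and Plk1, the proliferation marker Mki67, the centromeric histone Cenpa, the motor Kif11 and the midzone protein Prc1. Each is shown 5′ to 3′ along the gene, from 250 bases before to 30 bases after the start, with the matches in capitals. The CHR matches of Aurka and Plk1 begin after base 30, beyond the stretch shown, so their capitals mark CCAAT matches only.
Cenpf, chr1:189688057-189688336, minus strand: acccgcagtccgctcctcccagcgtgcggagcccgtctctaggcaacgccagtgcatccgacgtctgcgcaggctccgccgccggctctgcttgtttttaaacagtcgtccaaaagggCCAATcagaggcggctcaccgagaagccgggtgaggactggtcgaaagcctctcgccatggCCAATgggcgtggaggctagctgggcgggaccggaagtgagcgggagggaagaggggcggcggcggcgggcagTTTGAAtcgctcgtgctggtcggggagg
Ccnb2, chr9:70421525-70421804, minus strand: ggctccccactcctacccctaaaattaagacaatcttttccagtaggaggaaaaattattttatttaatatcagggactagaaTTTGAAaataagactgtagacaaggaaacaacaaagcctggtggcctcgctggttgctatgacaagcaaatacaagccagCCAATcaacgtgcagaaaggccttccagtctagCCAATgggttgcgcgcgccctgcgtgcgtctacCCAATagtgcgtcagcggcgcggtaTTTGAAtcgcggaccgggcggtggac
Aurka, chr2:172370541-172370820, minus strand: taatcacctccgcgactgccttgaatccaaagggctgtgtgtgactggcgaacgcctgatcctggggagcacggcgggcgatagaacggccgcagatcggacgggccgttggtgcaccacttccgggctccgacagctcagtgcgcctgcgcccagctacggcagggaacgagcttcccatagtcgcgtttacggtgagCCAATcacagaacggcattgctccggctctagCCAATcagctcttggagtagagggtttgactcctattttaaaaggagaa
Plk1, chr7:122159185-122159464, plus strand: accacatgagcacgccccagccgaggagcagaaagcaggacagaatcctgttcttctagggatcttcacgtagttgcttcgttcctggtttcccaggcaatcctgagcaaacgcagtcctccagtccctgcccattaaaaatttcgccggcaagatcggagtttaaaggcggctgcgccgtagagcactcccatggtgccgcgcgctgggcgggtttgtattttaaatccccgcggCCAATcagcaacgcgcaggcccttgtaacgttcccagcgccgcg
Mki67, chr7:135716350-135716629, minus strand: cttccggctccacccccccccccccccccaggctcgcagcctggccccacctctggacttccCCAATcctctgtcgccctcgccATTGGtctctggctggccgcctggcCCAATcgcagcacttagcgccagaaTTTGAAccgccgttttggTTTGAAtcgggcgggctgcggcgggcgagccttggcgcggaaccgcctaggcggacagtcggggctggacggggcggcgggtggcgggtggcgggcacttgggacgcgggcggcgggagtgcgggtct
Cenpa, chr5:30666636-30666915, plus strand: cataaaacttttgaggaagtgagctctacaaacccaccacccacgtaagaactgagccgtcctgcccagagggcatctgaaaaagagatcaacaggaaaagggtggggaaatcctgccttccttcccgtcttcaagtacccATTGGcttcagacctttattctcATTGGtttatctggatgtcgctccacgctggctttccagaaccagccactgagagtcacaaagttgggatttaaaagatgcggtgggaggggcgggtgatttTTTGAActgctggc
Kif11, chr19:37376132-37376411, plus strand: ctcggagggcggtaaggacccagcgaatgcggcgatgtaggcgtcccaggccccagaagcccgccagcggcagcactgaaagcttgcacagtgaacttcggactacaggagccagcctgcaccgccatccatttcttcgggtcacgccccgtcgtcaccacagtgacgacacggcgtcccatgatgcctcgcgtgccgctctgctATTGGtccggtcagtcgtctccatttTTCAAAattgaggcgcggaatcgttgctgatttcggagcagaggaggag
Prc1, chr7:80294201-80294480, plus strand: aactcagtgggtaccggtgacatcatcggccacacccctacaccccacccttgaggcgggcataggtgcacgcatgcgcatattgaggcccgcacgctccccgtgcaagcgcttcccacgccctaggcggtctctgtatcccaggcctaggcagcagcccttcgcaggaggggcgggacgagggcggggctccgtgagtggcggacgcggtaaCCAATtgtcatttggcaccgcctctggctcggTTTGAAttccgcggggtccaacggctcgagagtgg

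A CHR match was present in 36 of the 47 promoters (76.6%), against 13.9% of the 9911 promoters of tested genes and 19.4% of all 27025 promoters in the table. A CCAAT match was present in 35 (74.5%), against 40.1% and 37.9%, and 24 (51.1%) held at least 2 of them, against 15.8% and 12.2%. Both elements occurred together in 31 promoters (66.0%), against 6.22% of promoters of tested genes and 7.70% of all. Top2a had the most matches, with 4 CHR and 6 CCAAT. The 79 CCAAT matches had a median position of -71 relative to the start and 49 of them lay in the 100 bases before it, whereas the 49 CHR matches had a median position of -14 and 23 of them lay after the start. These are letter matches, not measured binding, and a window without a match says only that the letters are not in it.

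**Figure D1:**
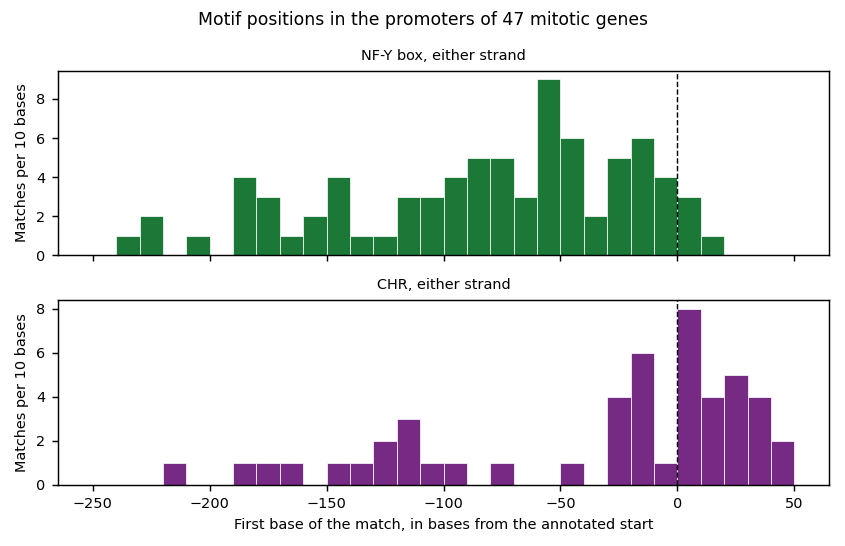
Positions of the motif matches in the 47 promoters, as the number of matches per 10 bases (y axis) against the distance of the first base of the match from the annotated start (x axis); the upper and lower panels are 1 motif each, and the dashed line is the start. The NF-Y matches (79) gather upstream of the start, with a median of -71, and the CHR matches (49) around it, with a median of -14.

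Most of the 58 transcripts stood higher in the cells given oleic acid than in the vehicle cells, by modest amounts, and those that rose came from mitotic entry, the spindle, the kinetochore and anaphase. In OA against MDI, 21 of the 58 genes rose (36.2%), where 3.43% of all genes tested were called higher, and 0 fell, where 3.36% of all were called lower. A call is an adjusted p below 0.05 in limma, with Benjamini-Hochberg adjustment over all 15002 genes. The log2 fold changes ranged from -0.02 to 0.47 with a median of 0.22, against a median of 0.01 over all genes. They were above 0 for 56 of 58, against 53.25% of all genes. In 42 of the 58 genes all OA libraries lay above all MDI libraries, a pattern found in 13.4% of all genes, and 0 showed the reverse, found in 12.6%. The unadjusted p was below 0.05 for 41 of the 58. For such counts of unadjusted p, here and below, the share of all genes was not taken.

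The number of genes that rose depended on single libraries. When 1 OA library was left out, it was 4 for replicate 1, 13 for replicate 2 and 9 for replicate 3. When 1 MDI library was left out, it was 2 for replicate 1, 2 for replicate 2 and 26 for replicate 3. The OA_T0 libraries enter only through the shared spread, and leaving out their replicates 1, 2 and 3 gave 13, 26 and 25. The median over the 58 genes was between 0.18 and 0.25 in these 9 fits. Cenpf and Dlgap5 were called in all 9.

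In the cells given T0901317 with the acid, most of the 58 transcripts stood lower than in cells given the acid alone, again by modest amounts. In OA_T0 against OA, 14 of the 58 genes fell (24.1%), where 6.84% of all genes tested were called lower, and 0 rose, where 8.27% of all were called higher. The median log2 fold change was -0.15, with a range of -0.46 to 0.22, against a median of -0.0023 over all genes. It was below 0 for 48 of 58 genes and above 0 for 10, against 49.58% of all genes above 0. In 21 genes all OA_T0 libraries lay below all OA libraries, against 15% of all genes. The reverse was seen for 1 gene, Ska1, against 17.1% of all. The unadjusted p was below 0.05 for 29 of the 58. Both comparisons use the OA libraries, so they are not independent of each other: OA libraries that are high raise one and lower the other.

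This count, too, depended on single libraries. When 1 OA_T0 library was left out, it was 4 for replicate 1, 28 for replicate 2 and 4 for replicate 3. When 1 OA library was left out, it was 4 for replicate 1, 7 for replicate 2 and 12 for replicate 3, and for the MDI libraries it was 16, 9 and 17 in the same order. Leaving out both libraries with little ribosomal RNA, OA replicate 1 and OA_T0 replicate 3, gave 2, whereas the OA against MDI count was then 20. The median over the 58 genes was between -0.20 and -0.09 in the 9 fits. Bub1b, Cenpf, Aspm and Dlgap5 were called in all 9.

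Between OA_T0 and MDI, limma called 0 of the 58 genes in either direction, where 1.25% of all genes were called higher and 1.36% lower. The median log2 fold change was 0.07, with a range of -0.05 to 0.24, against 0.02 over all genes. It was above 0 for 47 of the 58 genes, against 54.36% of all genes, and below 0 for 11. With each library left out in turn the median was 0.01 without MDI replicate 1, its lowest, and 0.13 without OA_T0 replicate 3, its highest. In this comparison 10 of 58 had an unadjusted p below 0.05. In 5 genes, Cdk1, Bub3, Mad2l1, Ska1 and Ube2c, all OA_T0 libraries lay above all MDI libraries, against 13.3% of all genes, and 0 genes showed the reverse, against 10.2%. Without OA_T0 replicate 3, Ccnf was called higher (lowest adjusted p over the alternatives 0.0472). An adjusted p that misses the threshold does not show that the groups are alike.

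**Figure D2:**
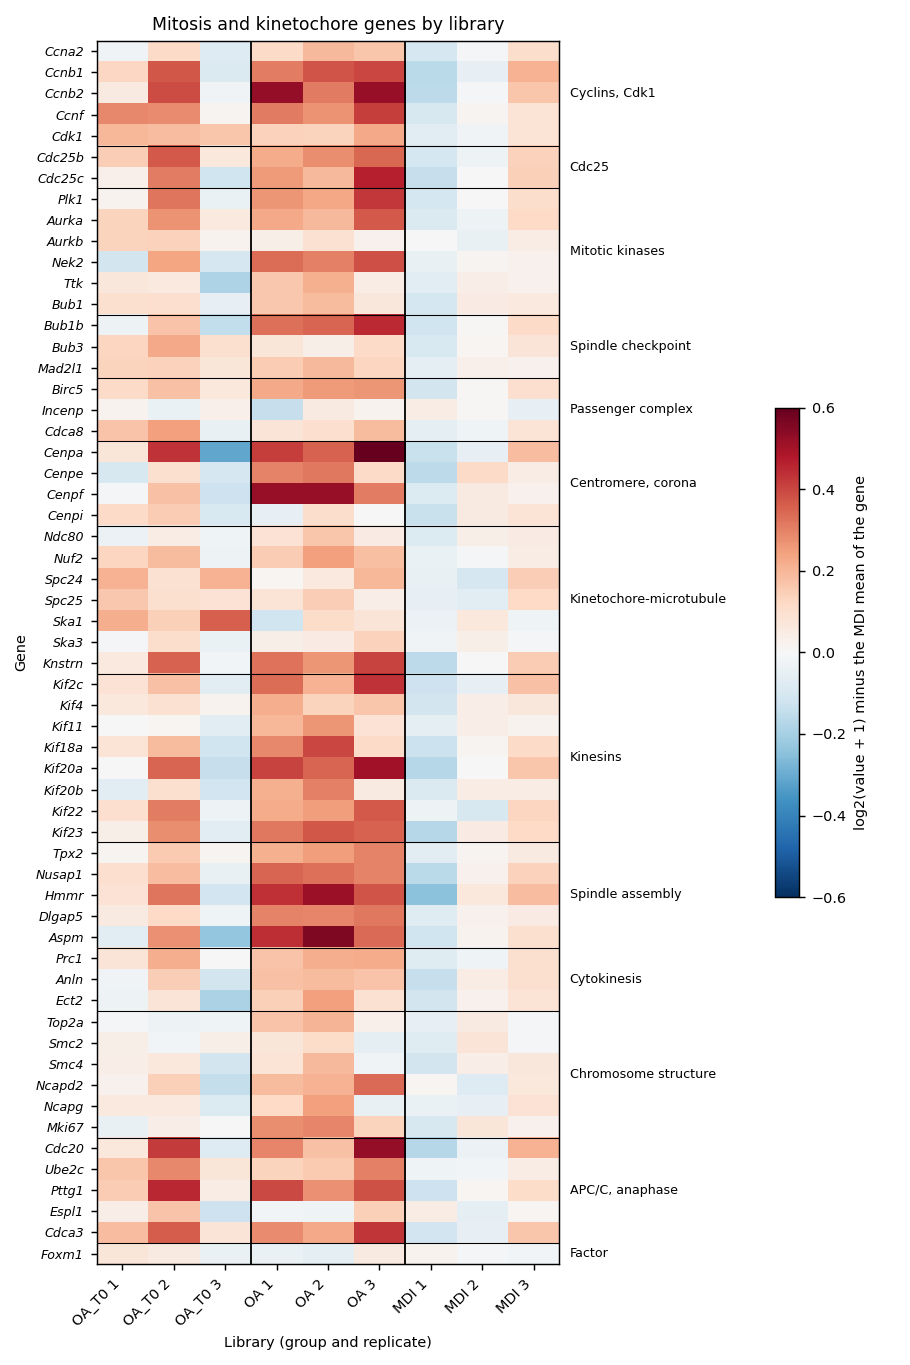
Level of each of the 58 genes (rows, grouped by role) in each of the 9 libraries (columns, OA_T0, OA and MDI replicates 1 to 3), as log2(value + 1) minus the MDI mean of the gene in colour. Most rows are raised in the 3 OA libraries, and among the OA_T0 libraries replicate 2 is raised and replicate 3 is not.

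**Figure D3:**
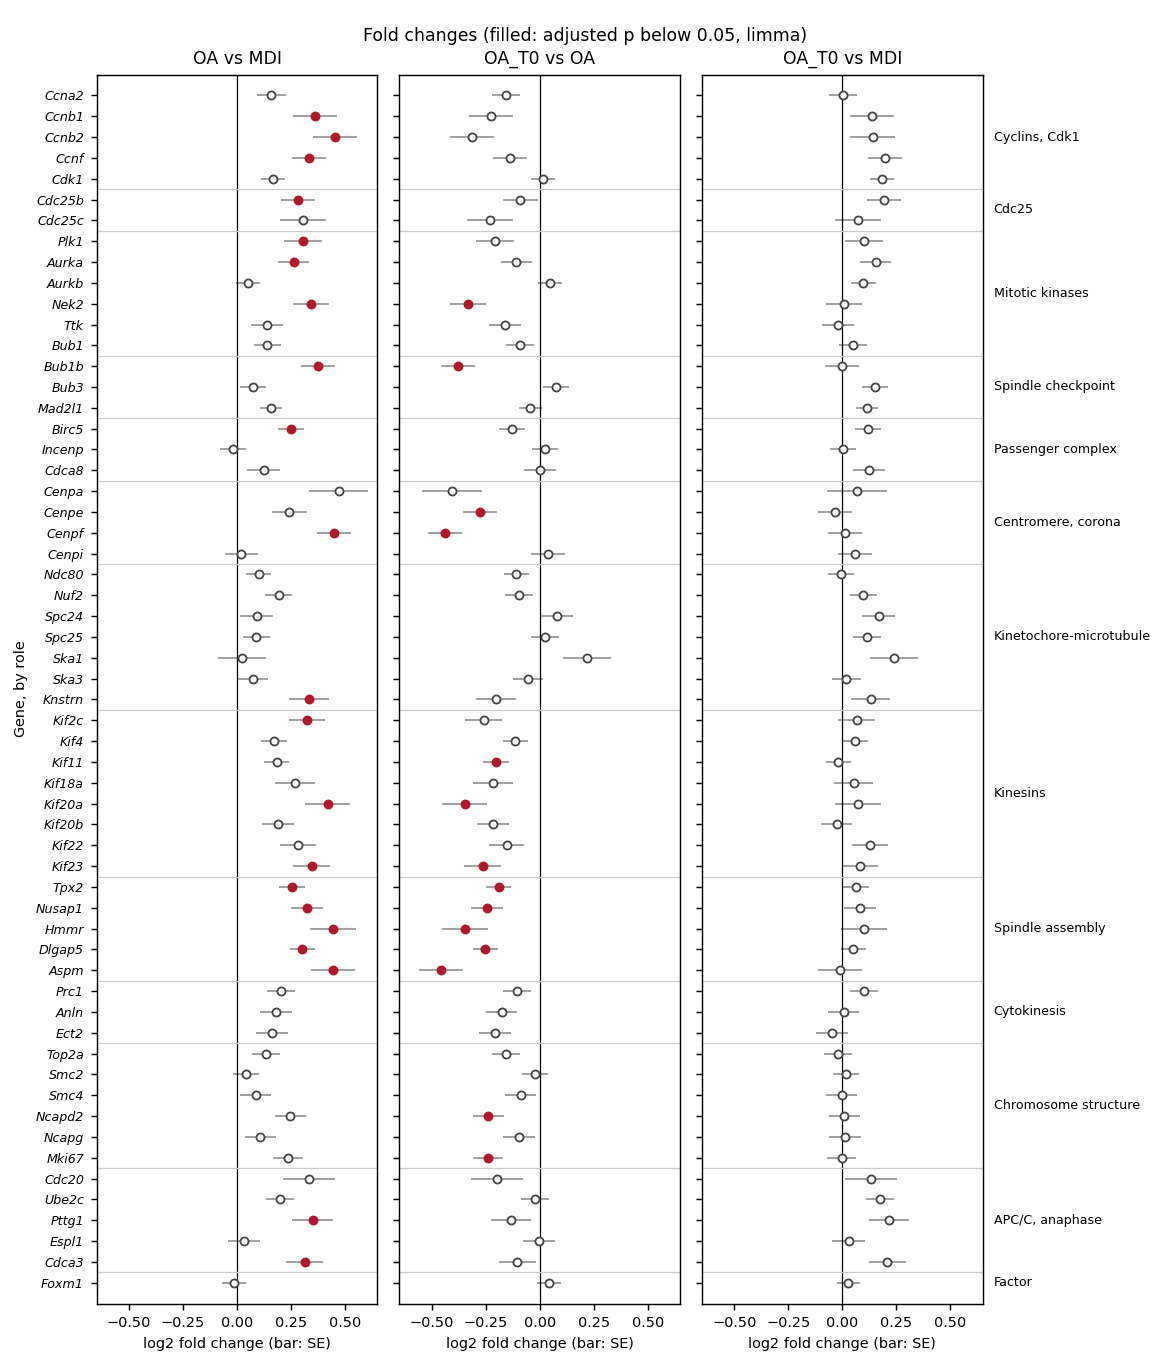
log2 fold change of each of the 58 genes (y axis, by role) in OA against MDI, OA_T0 against OA and OA_T0 against MDI (panels), with bars for the SE; filled points passed limma at an adjusted p below 0.05. There are 21 filled points, all above 0, in the panel of OA against MDI, 14, all below 0, in that of OA_T0 against OA, and 0 in that of OA_T0 against MDI.

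Of the 5 genes of cyclins and Cdk1, Ccnb1, Ccnb2 and Ccnf rose in OA against MDI. With T0901317 (OA_T0 against OA) limma called 0 of the 5, with an unadjusted p below 0.05 for 3. Cyclin B2, a partner of Cdk1 at mitotic entry, stood at 1838, 2320.4 and 1743 units in the OA_T0 libraries, 2555, 2194 and 2545 in the OA libraries and 1589, 1755 and 1989 in the MDI libraries. All OA libraries were above all MDI libraries, with a log2 fold change of 0.45 ± 0.10 (adjusted p = 0.0158), while OA_T0 replicate 2 reached into the OA range and OA_T0 against OA gave -0.31 ± 0.10 (adjusted p = 0.0532). Cyclin B1 stood at 3892, 4623 and 3363 in the OA_T0 libraries, 4415, 4649.8 and 4715 in the OA libraries and 3199, 3457 and 4129 in the MDI libraries, and gave 0.36 ± 0.10 (adjusted p = 0.0461) in OA against MDI and -0.23 ± 0.10 (adjusted p = 0.152) in OA_T0 against OA. Its OA libraries lay above all MDI libraries, and OA_T0 replicate 2 lay between OA replicates 1 and 2. Ccnf encodes cyclin F, which is known as part of a ubiquitin ligase and not as a partner of a Cdk. It gave 0.33 ± 0.08 (adjusted p = 0.0199) and -0.14 ± 0.08 (adjusted p = 0.269) in the same order of comparisons. Of the 9 fits that left out 1 library, Ccnb2 and Ccnf passed in OA against MDI in 5 each and Ccnb1 in 3, where its adjusted p reached 0.196 without MDI replicate 1.

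Cdk1 itself and cyclin A2, which acts from S phase to early mitosis, did not pass. Cdk1 stood at 7334, 7275 and 7177 units in the OA_T0 libraries, 7050.0, 7026 and 7489 in the OA libraries and 6132, 6305 and 6774 in the MDI libraries. Here the OA_T0 and OA libraries overlapped, and both groups lay above all MDI libraries. Its log2 fold change was 0.17 ± 0.06 (adjusted p = 0.0888) in OA against MDI, 0.02 ± 0.06 (adjusted p = 0.884) in OA_T0 against OA and 0.18 ± 0.06 (adjusted p = 0.100) in OA_T0 against MDI. Ccna2 stood at 7965, 8743 and 7652 in the OA_T0 libraries, 8751, 9262 and 9071 in the OA libraries and 7549, 8045 and 8702 in the MDI libraries, with the OA libraries above the others but by a narrow gap, and gave 0.16 ± 0.07 (adjusted p = 0.176) and -0.15 ± 0.07 (adjusted p = 0.129) in OA against MDI and OA_T0 against OA. Among the Cdc25 phosphatases, Cdc25b rose in OA against MDI at 0.28 ± 0.08 (adjusted p = 0.0471) and passed in 3 of the 9 fits, its adjusted p reaching 0.189 without MDI replicate 1. Cdc25c, at 833, 1009 and 749.7 in the OA_T0 libraries, 971, 933 and 1126 in the OA libraries and 739, 813 and 899 in the MDI libraries, gave 0.31 ± 0.11 (adjusted p = 0.105). Neither passed in OA_T0 against OA, where the log2 fold changes were -0.09 for Cdc25b and -0.23 for Cdc25c.

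Of the 6 mitotic kinases, Plk1, Aurka and Nek2 rose in OA against MDI. Plk1, which acts from centrosome maturation to cytokinesis, stood at 2855, 3519.8 and 2744 units in the OA_T0 libraries, 3385, 3311 and 3776 in the OA libraries and 2616, 2821 and 3031 in the MDI libraries. The OA libraries were above all MDI libraries, and OA_T0 replicate 2 was the only OA_T0 library inside the OA range. The fold change was 0.31 ± 0.09 (adjusted p = 0.0475) in OA against MDI and -0.21 ± 0.09 (adjusted p = 0.127) in OA_T0 against OA. Aurka, the spindle pole kinase, stood at 2886, 3173 and 2744 in the OA_T0 libraries, 3080.3, 3008 and 3401 in the OA libraries and 2478, 2576 and 2858 in the MDI libraries and gave 0.26 ± 0.07 (adjusted p = 0.0409) in OA against MDI. The OA_T0 and OA libraries of Aurka overlapped, at -0.11 ± 0.07 (adjusted p = 0.34). Nek2, a centrosome kinase, stood at 984, 1252 and 991 in the OA_T0 libraries, 1340.3, 1310.4 and 1389 in the OA libraries and 1030.3, 1075 and 1084 in the MDI libraries. Its OA libraries lay above all 6 others, and it was the 1 kinase that fell in OA_T0 against OA, at -0.33 ± 0.08 (adjusted p = 0.0148), after 0.34 ± 0.08 (adjusted p = 0.0235) in OA against MDI. In OA against MDI, Plk1 passed in 3, Aurka in 4 and Nek2 in 5 of the 9 fits with 1 library left out. Nek2 passed in 6 of 9 in OA_T0 against OA, with an adjusted p of at most 0.0945.

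The other kinases, Bub1, Ttk and Aurkb, did not pass. Bub1, which recruits the checkpoint proteins to kinetochores, stood at 4459, 4466 and 4024 units in the OA_T0 libraries, 4669, 4752 and 4374 in the OA libraries and 3873, 4314 and 4336 in the MDI libraries and gave 0.14 ± 0.06 (adjusted p = 0.22) in OA against MDI. Ttk, also known as Mps1, gave 0.14 ± 0.07 (adjusted p = 0.305). Aurkb, the kinase of the chromosomal passenger complex, stood at 2636, 2642 and 2434 in the OA_T0 libraries, 2457, 2559 and 2448 in the OA libraries and 2400.2, 2330.4 and 2478 in the MDI libraries, so that the 3 groups overlapped. Its log2 fold change was 0.05 ± 0.06 (adjusted p = 0.676) in OA against MDI and 0.05 ± 0.06 (adjusted p = 0.62) in OA_T0 against OA. The other passenger genes did not share 1 pattern either. Birc5, or survivin, stood at 3969.9, 4138 and 3830.3 in the OA_T0 libraries, 4293, 4369 and 4399 in the OA libraries and 3398, 3682 and 3931 in the MDI libraries and rose in OA against MDI at 0.25 ± 0.06 (adjusted p = 0.0218), in 4 of the 9 fits and with an adjusted p of up to 0.0942. Incenp, the scaffold, stood at 4082, 3912 and 4105 in the OA_T0 libraries, 3654, 4181 and 4083 in the OA libraries and 4151, 4035 and 3884 in the MDI libraries, where the 3 groups overlapped, and gave -0.02 ± 0.06 (adjusted p = 0.895) in OA against MDI. Cdca8, or borealin, gave 0.12 ± 0.07 (adjusted p = 0.382).

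Of the 3 genes of the spindle checkpoint, Bub1b changed in both comparisons. Bub1b, which encodes BubR1, stood at 5443, 6259 and 5007 units in the OA_T0 libraries, 6974, 7080.2 and 7581 in the OA libraries and 5105, 5574 and 6015 in the MDI libraries. All OA libraries were above all 6 others, and the OA_T0 and MDI libraries overlapped. It rose in OA against MDI by 0.38 ± 0.08 (adjusted p = 0.0101) on the log2 scale, or 1.3-fold, and its log2 fold change in OA_T0 against OA was -0.38 ± 0.08 (adjusted p = 0.00489). Over the fits with 1 library left out it passed in 7 of 9 in the first of these comparisons, with an adjusted p of at most 0.0536, and in 9 of 9 in OA_T0 against OA. Mad2l1, the checkpoint protein that captures Cdc20, stood at 4916, 4939.5 and 4716 in the OA_T0 libraries, 4979.6, 5125 and 4910.2 in the OA libraries and 4317, 4576 and 4569.8 in the MDI libraries and did not pass, at 0.16 ± 0.05 (adjusted p = 0.0883) and -0.04 ± 0.05 (adjusted p = 0.618) in OA against MDI and OA_T0 against OA. Bub3, the partner of Bub1 and BubR1, stood at 4012, 4289 and 3915 in the OA_T0 libraries, 3858, 3762 and 3974 in the OA libraries and 3445, 3703 and 3867 in the MDI libraries and gave 0.08 ± 0.06 (adjusted p = 0.527) and 0.07 ± 0.06 (adjusted p = 0.43) in the same comparisons, and 0.15 ± 0.06 (adjusted p = 0.197) in OA_T0 against MDI. For both, the OA_T0 libraries lay above all MDI libraries.

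**Figure D4:**
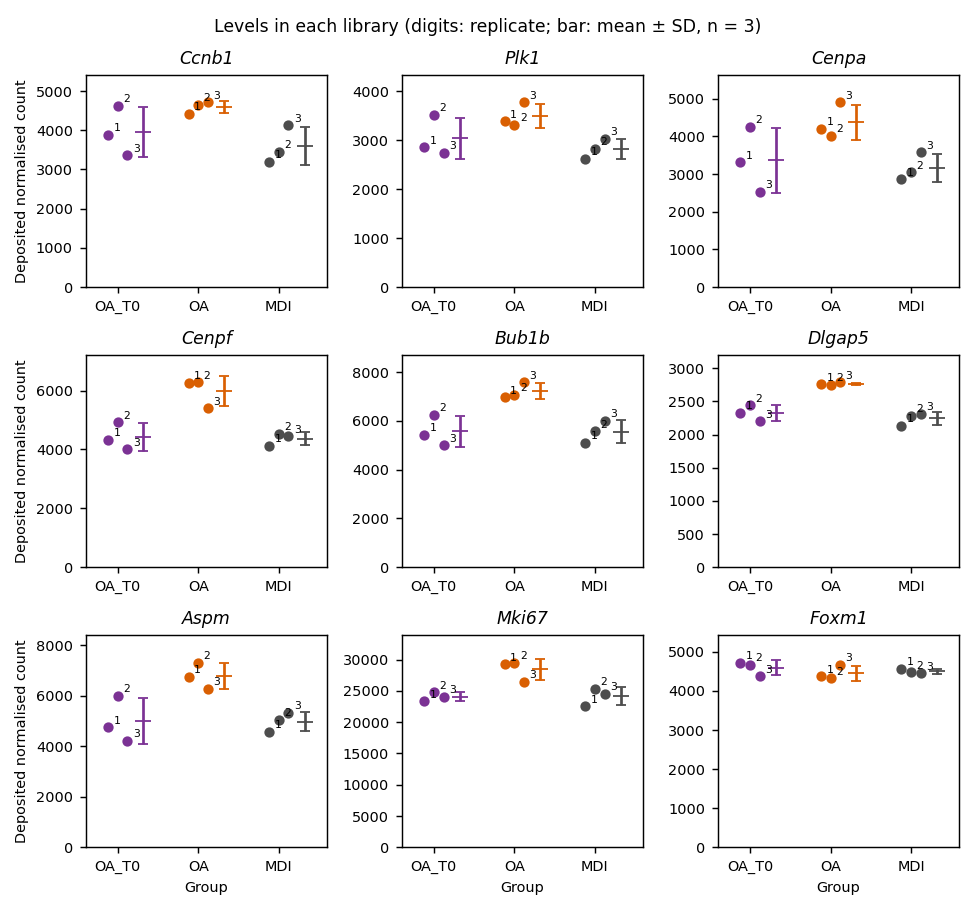
Deposited normalised count (y axis, from 0) in each library of the OA_T0, OA and MDI groups (x axis) for 9 of the genes; digits are replicate numbers and bars the mean ± SD of 3 libraries. For Cenpf, the OA libraries at 5401 to 6279 units lie above the OA_T0 libraries at 4001 to 4926 and the MDI libraries at 4129 to 4536.

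Cenpf had the smallest adjusted p of the 58 genes in both comparisons that involve OA. It encodes a large protein of the fibrous corona, the outermost layer of the kinetochore, and stood at 4335, 4926 and 4001 units in the OA_T0 libraries, 6265, 6279 and 5401 in the OA libraries and 4129, 4536 and 4446 in the MDI libraries. Every OA library was above every other library, and the OA_T0 and MDI libraries overlapped. The mean was 4421 ± 468 in OA_T0, 5982 ± 503 in OA and 4370.3 ± 214 in MDI (SD, n = 3 each). The log2 fold change was 0.45 ± 0.08 (adjusted p = 0.00278) in OA against MDI, a 1.37-fold difference, -0.44 ± 0.08 (adjusted p = 0.00172) in OA_T0 against OA and 0.01 ± 0.08 (adjusted p = 0.951) in OA_T0 against MDI. With each library left out in turn the adjusted p of Cenpf was at most 0.0201 in OA against MDI and 0.0139 in OA_T0 against OA. Its promoter, shown above, held 2 CCAAT matches and 1 CHR match.

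Cenpe, the corona motor that carries chromosomes along microtubules, stood at 6246, 7140.2 and 6214 units in the OA_T0 libraries, 8194, 8303 and 7229 in the OA libraries and 5987, 7213 and 6875 in the MDI libraries. The lowest OA library, replicate 3, was just above the highest MDI library, and the OA_T0 libraries were all below the OA libraries. Cenpe fell in OA_T0 against OA at -0.28 ± 0.08 (adjusted p = 0.0298), in 5 of the 9 fits with an adjusted p of up to 0.136, and in OA against MDI it gave 0.24 ± 0.08 (adjusted p = 0.0837). Cenpa, the histone H3 variant that marks the centromere, stood at 3309, 4255 and 2536 in the OA_T0 libraries, 4195, 4021 and 4904 in the OA libraries and 2864, 3041 and 3575 in the MDI libraries. It had the greatest log2 fold change of the 58 genes in OA against MDI, 0.47 ± 0.14, but also wide scatter among replicates, and passed neither there (adjusted p = 0.0552) nor in OA_T0 against OA, at -0.40 ± 0.14 (adjusted p = 0.0622). Its OA_T0 replicate 2 exceeded 2 of the OA libraries, and OA_T0 replicate 3 was below all MDI libraries. Cenpi, of the inner kinetochore, gave 0.02 ± 0.08 (adjusted p = 0.923) and 0.04 ± 0.08 (adjusted p = 0.78) in OA against MDI and OA_T0 against OA.

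Of the 7 genes for the proteins that hold microtubules at the kinetochore, in the Ndc80 complex, the Ska complex and the adaptor Knstrn, 1 rose in OA against MDI. Of the same 7, limma called 0 in OA_T0 against OA, with an unadjusted p below 0.05 for 1. The gene that rose was Knstrn, which stood at 3117, 3819 and 2953 units in the OA_T0 libraries, 3753, 3590.3 and 3967 in the OA libraries and 2685, 2996 and 3328 in the MDI libraries. Its log2 fold change in OA against MDI was 0.33 ± 0.09 (adjusted p = 0.0409). It passed in 3 of the 9 fits, with an adjusted p of up to 0.181. All its OA libraries lay above all MDI libraries. Ndc80 stood at 2214, 2338 and 2226 in the OA_T0 libraries, 2409, 2544 and 2351 in the OA libraries and 2141, 2326 and 2348 in the MDI libraries, so that the OA and MDI libraries were barely separated, at 0.10 ± 0.06 (adjusted p = 0.364). Of its partners, Nuf2 gave 0.19 ± 0.06 (adjusted p = 0.0849), Spc24 0.09 and Spc25 0.09. Ska1, of the ring that tracks microtubule ends, gave 0.02 ± 0.11 (adjusted p = 0.94) in OA against MDI. Its fold change in OA_T0 against OA was 0.22 ± 0.11 (adjusted p = 0.209), the greatest fold change above 0 of the 58 genes, and its OA_T0 libraries lay above all 6 others, as given at the start. Ska3 gave 0.07 and -0.06 in OA against MDI and OA_T0 against OA.

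The 5 spindle assembly genes, Aspm, Hmmr, Dlgap5, Nusap1 and Tpx2, were the 1 role in which all members passed in both comparisons, higher in OA than in MDI and lower in OA_T0 than in OA. The roles were set with earlier results of these data known, so this depends on the grouping. Kif11, Kif2c and Prc1, which also act on spindle microtubules, were placed in other roles and did not pass in both comparisons. Aspm, which focuses microtubules at the spindle poles, stood at 4748, 6003 and 4229 units in the OA_T0 libraries, 6758, 7320.3 and 6286 in the OA libraries and 4583, 5044 and 5317 in the MDI libraries. All OA libraries were above the 6 others, with OA_T0 replicate 2 nearest. Aspm gave 0.45 ± 0.10 (adjusted p = 0.0159) in OA against MDI and -0.46 ± 0.10 (adjusted p = 0.00736) in OA_T0 against OA, the greatest difference below 0 among the 58 genes there. Dlgap5, also known as HURP, which stabilises fibres near chromosomes, stood at 2326, 2439 and 2202 in the OA_T0 libraries, 2759, 2748 and 2787 in the OA libraries and 2129.7, 2283 and 2316 in the MDI libraries. The OA libraries were close together and above the 6 others, and Dlgap5 gave 0.30 ± 0.06 (adjusted p = 0.0055) and -0.25 ± 0.06 (adjusted p = 0.00888) in the same comparisons. With 1 library left out the adjusted p of Dlgap5 was at most 0.0290 and 0.0424 in these, and that of Aspm at most 0.0811 and 0.0455.

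Hmmr, which links the spindle poles to microtubules, stood at 3989.6, 4692 and 3471 units in the OA_T0 libraries, 5091, 5369.6 and 4877 in the OA libraries and 3165, 3919 and 4271 in the MDI libraries. Its OA libraries were the highest, and it gave 0.44 ± 0.11 (adjusted p = 0.0211) in OA against MDI and -0.35 ± 0.11 (adjusted p = 0.0401) in OA_T0 against OA. Tpx2, the activator of Aurka at spindle microtubules, stood at 7869.6, 8660.0 and 7864 in the OA_T0 libraries, 9012, 9241 and 9555 in the OA libraries and 7401, 7847 and 8076 in the MDI libraries, with the OA libraries above all 6 others. It gave 0.25 ± 0.06 (adjusted p = 0.0177) and -0.19 ± 0.06 (adjusted p = 0.0408) in the same comparisons. Nusap1, which binds microtubules near chromosomes, gave 0.33 ± 0.07 (adjusted p = 0.0166) and -0.25 ± 0.07 (adjusted p = 0.0381), also without overlap. Hmmr passed in 4 of the 9 fits of OA_T0 against OA, and Tpx2 and Nusap1 in 3 each, with adjusted p-values of up to 0.141, 0.175 and 0.139. In OA against MDI, Hmmr passed in 5 of the 9 fits, and Tpx2 and Nusap1 in 6 each.

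Of the 8 kinesins, Kif20a, Kif23 and Kif2c rose in OA against MDI, and Kif11, Kif20a and Kif23 fell in OA_T0 against OA. Kif20a, a motor of the central spindle, stood at 6629, 8430.5 and 6017 units in the OA_T0 libraries, 8754, 8426 and 9375 in the OA libraries and 5881, 6625 and 7425 in the MDI libraries. OA_T0 replicate 2 lay just above the lowest OA library, and the other OA_T0 libraries were within the MDI range. Kif20a gave 0.42 ± 0.10 (adjusted p = 0.0255) in OA against MDI and -0.35 ± 0.10 (adjusted p = 0.037) in OA_T0 against OA. Kif11, the motor that pushes the spindle poles apart, stood at 6104, 6156 and 5850.3 in the OA_T0 libraries, 7024, 7343 and 6492 in the OA libraries and 5867, 6279.7 and 6193 in the MDI libraries, with all OA libraries above the 6 others. It fell in OA_T0 against OA at -0.20 ± 0.06 (adjusted p = 0.0304), whereas OA against MDI gave 0.18 ± 0.06 (adjusted p = 0.0744). Kif23, the motor of centralspindlin, gave 0.35 ± 0.09 (adjusted p = 0.0235) and -0.26 ± 0.09 (adjusted p = 0.0483) in the same comparisons as Kif20a, and Kif2c, which depolymerises microtubules at centromeres, 0.33 ± 0.08 (adjusted p = 0.0306) and -0.26 ± 0.08 (adjusted p = 0.0502). The remaining kinesins, Kif4, Kif18a, Kif20b and Kif22, had log2 fold changes between 0.17 and 0.28 in OA against MDI and between -0.22 and -0.11 in OA_T0 against OA, and did not pass.

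With 1 library left out, Kif20a passed in 5, Kif23 in 4 and Kif2c in 4 of the 9 fits in OA against MDI, with adjusted p-values of up to 0.127, 0.114 and 0.142. In OA_T0 against OA, Kif11 passed in 5, Kif20a in 3 and Kif23 in 3, with adjusted p-values of up to 0.132, 0.149 and 0.173.

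For the 3 cytokinesis genes all OA libraries lay above all MDI libraries, but limma called 0 of 3 in either comparison. The unadjusted p was below 0.05 for 3 in OA against MDI and for 2 in OA_T0 against OA. Prc1, which bundles microtubules at the midzone, stood at 6832, 7529 and 6449 units in the OA_T0 libraries, 7292, 7522 and 7541 in the OA libraries and 6145, 6361 and 6920.3 in the MDI libraries. OA_T0 replicate 2 was within the OA range, and the fold change was 0.20 ± 0.06 (adjusted p = 0.075) in OA against MDI and -0.11 ± 0.06 (adjusted p = 0.298) in OA_T0 against OA. Anln, the actin-binding scaffold of the contractile ring, stood at 7914, 8889.5 and 7440.3 in the OA_T0 libraries, 9079.9, 9172 and 9045 in the OA libraries and 7296, 8277 and 8567 in the MDI libraries and gave 0.18 ± 0.07 (adjusted p = 0.159) and -0.18 ± 0.07 (adjusted p = 0.118). Its OA libraries were close together, while the OA_T0 and MDI libraries spread below them. Ect2, which activates RhoA at the cleavage site, stood at 2759, 2973 and 2473 in the OA_T0 libraries, 3115, 3339.5 and 2999 in the OA libraries and 2610.3, 2867 and 2986 in the MDI libraries, with the lowest OA library just above the highest of the others. It gave 0.16 ± 0.07 (adjusted p = 0.226), -0.21 ± 0.07 (adjusted p = 0.0727) and, in OA_T0 against MDI, -0.05 ± 0.07 (adjusted p = 0.774).

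Of the 6 genes of chromosome structure, limma called 0 in OA against MDI, with an unadjusted p below 0.05 for 2, and Mki67 and Ncapd2 fell in OA_T0 against OA. Mki67 encodes Ki-67, the coat protein of mitotic chromosomes used as a marker of proliferation. It stood at 23369, 24755 and 24067 units in the OA_T0 libraries, 29268, 29540.4 and 26484 in the OA libraries and 22530.5, 25328 and 24559.5 in the MDI libraries. All OA libraries were above all OA_T0 and MDI libraries. The log2 fold change was -0.24 ± 0.07 (adjusted p = 0.0282) in OA_T0 against OA and 0.24 ± 0.07 (adjusted p = 0.0503) in OA against MDI. Top2a, the topoisomerase that untangles sister chromatids, stood at 28212, 27801 and 27813 in the OA_T0 libraries, 31924, 32688 and 28923 in the OA libraries and 27404, 29454 and 28258 in the MDI libraries. Its OA replicates 1 and 2 were high, but OA replicate 3 was below the highest MDI library, and it gave 0.13 ± 0.07 (adjusted p = 0.256) and -0.16 ± 0.07 (adjusted p = 0.124) in OA against MDI and OA_T0 against OA.

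Of the condensin genes, Ncapd2 fell in OA_T0 against OA at -0.24 ± 0.07 (adjusted p = 0.0372) and gave 0.25 ± 0.07 (adjusted p = 0.0526) in OA against MDI. Smc2, Smc4 and Ncapg had log2 fold changes of 0.04, 0.09 and 0.11 in OA against MDI and did not pass. With 1 library left out, Mki67 passed in 5 and Ncapd2 in 4 of the 9 fits of OA_T0 against OA, with adjusted p-values of up to 0.134 and 0.149.

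Of the 5 genes of the anaphase-promoting complex and its targets, Pttg1 and Cdca3 rose in OA against MDI. For OA_T0 against OA limma called 0 of the 5, and 0 had an unadjusted p below 0.05. Pttg1 encodes securin, the inhibitor of separase, and gave 0.35 ± 0.09 (adjusted p = 0.0363) in OA against MDI and -0.13 ± 0.09 (adjusted p = 0.369) in OA_T0 against OA. Cdca3, a target of the complex also known as Tome-1, gave 0.31 ± 0.09 (adjusted p = 0.0398) and -0.10 ± 0.09 (adjusted p = 0.447). Both passed in 4 of the 9 fits in OA against MDI, with adjusted p-values of up to 0.160 and 0.170. Cdc20, the activator of the anaphase-promoting complex, stood at 3140.4, 4019 and 2845 units in the OA_T0 libraries, 3686, 3397 and 4338 in the OA libraries and 2672, 2929 and 3471 in the MDI libraries. The lowest OA library was below the highest MDI library, and Cdc20 did not pass, at 0.33 ± 0.12 (adjusted p = 0.116) and -0.20 ± 0.12 (adjusted p = 0.29). Ube2c, the ubiquitin-conjugating enzyme of the complex, stood at 4401, 4777 and 4112 in the OA_T0 libraries, 4301, 4369 and 4834 in the OA libraries and 3843, 3874 and 4032 in the MDI libraries, with both the OA_T0 and the OA libraries above all MDI libraries, and gave 0.20 ± 0.07 (adjusted p = 0.0837), -0.02 ± 0.07 (adjusted p = 0.843) and 0.18 ± 0.07 (adjusted p = 0.171) in OA against MDI, OA_T0 against OA and OA_T0 against MDI. Espl1, or separase, gave 0.03 and -0.0042 in OA against MDI and OA_T0 against OA.

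Foxm1, the transcription factor known to activate many of these genes in G2, did not pass in any comparison. It stood at 4726, 4666 and 4371 units in the OA_T0 libraries, 4371, 4320.3 and 4670.4 in the OA libraries and 4559, 4480.1 and 4454 in the MDI libraries, and the 3 groups overlapped. The log2 fold change was -0.01 ± 0.05 (adjusted p = 0.918) in OA against MDI and 0.04 ± 0.05 (adjusted p = 0.643) in OA_T0 against OA. Foxm1 and Incenp were the 2 genes with a fold change below 0 in OA against MDI.

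The OA_T0 libraries differed among themselves across the 58 genes. OA_T0 replicate 2 was the highest of its group in 47 of the 58 genes, against 40.5% of all genes tested, and OA_T0 replicate 3 the lowest in 50, against 43.9%. In MDI, replicate 1 was the lowest in 49 genes, against 51.3% of all, and replicate 3 the highest in 45, against 48.1%. The mean log2 level of the 58 genes relative to MDI was 0.07, 0.19 and -0.04 in OA_T0 replicates 1 to 3, 0.21, 0.23 and 0.23 in OA, and -0.09, 0.00499 and 0.08 in MDI. OA_T0 replicate 2 therefore lay next to the OA libraries and OA_T0 replicate 3 among the MDI libraries. Set gene by gene against the group means, OA_T0 replicate 2 was nearer to OA than to MDI in 46 of the 58 genes, OA_T0 replicate 1 in 19 and OA_T0 replicate 3 in 7.

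The coefficient of variation of the 58 genes had a median of 7.97% in OA_T0, 5.39% in OA and 6.53% in MDI. Over 10089 tested genes with a mean at least as high as the lowest of the 58, it was 5.61%, 5.83% and 5.56% in the same groups. The widest ratio of highest to lowest replicate was 1.68 for Cenpa in OA_T0, 1.28 for Cdc20 in OA and 1.35 for Hmmr in MDI. Per kilobase of exon, which makes levels comparable between genes, the OA mean was highest for Top2a at 5972 units per kb, followed by Mki67 at 2826, Smc4 at 2703, Cenpa at 2665 and Ccna2 at 2489. It was lowest for Ska1 at 78.8, below Espl1 at 335, Ska3 at 364 and Nek2 at 417.

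**Figure D5:**
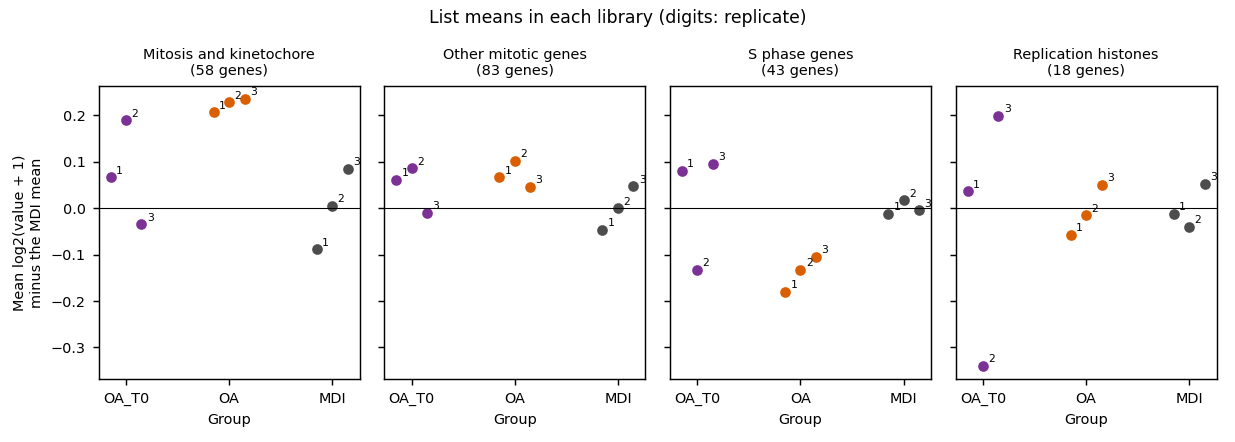
Mean log2(value + 1) of a gene list minus its MDI mean (y axis) in each library of the OA_T0, OA and MDI groups (x axis), in a panel for each list; digits are replicate numbers. The 58 mitotic genes are at 0.21 to 0.23 in the OA libraries and at 0.07, 0.19 and -0.04 in the OA_T0 libraries, whereas the S-phase genes are at -0.18 to -0.11 in OA and the histone genes at -0.34 in OA_T0 replicate 2 and 0.20 in replicate 3.

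Of 83 other genes of mitosis, on a list of further centromere, spindle, centrosome and mitotic entry genes, 5 rose (6.02%, against 3.43% of all genes tested) and 1 fell (1.20%, against 3.36%) in OA against MDI, with a median log2 fold change of 0.05. In 25 of the 83 all OA libraries lay above all MDI libraries, against 13.4% of all genes, and in 5 below them, against 12.6%. Fold changes were above 0 for 57, against 53.25% of all genes, and below 0 for 26. The unadjusted limma p was below 0.05 for 31. Cenpm, of the inner kinetochore, had the smallest adjusted p and stood at 516, 516 and 521 units in the OA_T0 libraries, 489.9, 539 and 564 in the OA libraries and 382, 385 and 408 in the MDI libraries. All OA_T0 and OA libraries were above all MDI libraries. It gave 0.44 ± 0.08 (adjusted p = 0.00443) in OA against MDI, -0.03 ± 0.08 (adjusted p = 0.816) in OA_T0 against OA and 0.40 ± 0.08 (adjusted p = 0.0152) in OA_T0 against MDI, the last in 6 of the 9 fits with an adjusted p of up to 0.0934. Ckap2l, Cdkn3 and Pimreg rose at 0.28, 0.48 and 0.33, and Cep70, named after its value was seen, at 0.36. Pkmyt1, a kinase that restrains Cdk1, also named after its value was seen, stood at 705, 726 and 662 in the OA_T0 libraries, 497, 564 and 512 in the OA libraries and 608, 653 and 651 in the MDI libraries. It fell in OA against MDI at -0.28 ± 0.08 (adjusted p = 0.0416) and rose in OA_T0 against OA at 0.41 ± 0.08 (adjusted p = 0.00251). With 1 library left out, between 1 and 10 of the 83 genes rose in OA against MDI, Cenpm in all 9 fits, and Pkmyt1 passed in 3 of 9 there and in 9 of 9 in OA_T0 against OA.

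In OA_T0 against OA, 5 of the 83 genes rose (6.02%, against 8.27% of all) and 3 fell (3.61%, against 6.84%), shares below those of all genes, with a median log2 fold change of -0.008. The regulatory subunit Cks1b rose at 0.24 ± 0.06 (adjusted p = 0.0129) and Depdc1a fell at -0.59 ± 0.16 (adjusted p = 0.0195). The other genes that rose were Pkmyt1, Mis18a, Trip13 and Nsl1, and the others that fell were Arpp19 and Sgo2a, some of them named after their values were seen. Cks1b passed in 6 and Depdc1a in 5 of the 9 fits, with adjusted p-values of up to 0.0729 and 0.0828. Of 17 genes of the anaphase-promoting complex and its regulators, limma called 0 in OA against MDI, with an unadjusted p below 0.05 for 4. The subunit Cdc27 was the 1 of them that fell in OA_T0 against OA (5.88%, against 6.84% of all genes), at -0.23 ± 0.07 (adjusted p = 0.0393). It passed in 4 of the 9 fits there, with an adjusted p of up to 0.177.

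Most genes of S phase stood lower in OA than in MDI. Of 43 genes of replication and the G1 to S transition, 0 rose and 1 fell in OA against MDI (2.33%, against 3.36% of all genes), with a median log2 fold change of -0.16, and in 26 of them all OA libraries lay below all MDI libraries, against 12.6% of all genes. The 1 gene was Cdc6, which loads the replicative helicase, at 819, 580.0 and 869 units in the OA_T0 libraries, 607, 613 and 622 in the OA libraries and 844, 869 and 804 in the MDI libraries and -0.45 ± 0.12 (adjusted p = 0.0292). Its OA libraries were close together, and OA_T0 replicate 2 was below them. In OA_T0 against OA, 7 of the 43 rose (16.3%, against 8.27% of all) and 0 fell, and among them the chromatin assembly subunit Chaf1b, at 1512, 1277 and 1561 in the OA_T0 libraries, 1058, 1067 and 1201 in the OA libraries and 1320.0, 1315 and 1361 in the MDI libraries, gave 0.38 ± 0.08 (adjusted p = 0.00441). The polymerase subunits Pold1, Pold2 and Pola2 gave 0.33, 0.26 and 0.25. The number that rose was between 1 and 25 with 1 library left out, lowest without OA replicate 1 or OA_T0 replicate 1 and highest without OA_T0 replicate 2. Cdc6 passed in 4 of 9 such fits in OA against MDI, and Chaf1b in 9 of 9 in OA_T0 against OA.

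Of 22 genes of the E2F, Rb and MuvB regulators of the cell cycle, 0 rose and 2 fell in OA against MDI (9.09%, against 3.36% of all genes), and 4 rose and 0 fell in OA_T0 against OA (18.2%, against 8.27% of all). Mybl2, which joins MuvB on CHR promoters, stood at 1445, 1156 and 1291 units in the OA_T0 libraries, 1084, 1132 and 1204 in the OA libraries and 1379.8, 1408 and 1404 in the MDI libraries and fell in OA against MDI at -0.29 ± 0.08 (adjusted p = 0.0323). All its OA libraries were below all MDI libraries. The repressor E2f7 fell there at -0.39 ± 0.09 (adjusted p = 0.0136) and rose in OA_T0 against OA at 0.32 ± 0.09 (adjusted p = 0.0212). The activator E2f1, at 1518, 1229 and 1576 in the OA_T0 libraries, 1082, 1114 and 1124 in the OA libraries and 1307, 1253 and 1368 in the MDI libraries, rose in OA_T0 against OA at 0.37 ± 0.08 (adjusted p = 0.00718), as did E2f4 at 0.26 and Tfdp1 at 0.19. E2f1 passed in 8 of 9 fits with 1 library left out, its adjusted p reaching 0.0519 without OA_T0 replicate 1, a fit in which 0 of the 22 genes rose. In OA against MDI, Mybl2 passed in 4 and E2f7 in 6 of the 9 fits. Lin54, the MuvB subunit that binds the CHR, gave -0.18 ± 0.07 (adjusted p = 0.17) in OA against MDI.

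Among 6 Cdk inhibitors, Cdkn2c (p18) was the 1 that rose in OA against MDI (16.7%, against 3.43% of all genes). It gave 0.29 ± 0.08 (adjusted p = 0.0428) and passed in 3 of the 9 fits. In OA_T0 against OA, 1 of the 6 rose (16.7%, against 8.27% of all) and 1 fell (16.7%, against 6.84%). Cdkn2b (p15) rose in OA_T0 against OA at 0.41 ± 0.09 (adjusted p = 0.00485), in 9 of 9 fits, and Cdkn1b (p27) fell at -0.26 ± 0.08 (adjusted p = 0.0341), in 6 of 9 fits. Cdkn1a (p21) gave 0.03 ± 0.06 (adjusted p = 0.844) and -0.08 ± 0.06 (adjusted p = 0.429) in these comparisons.

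Replication-dependent histone transcripts, which are made in S phase and mostly lack poly(A) tails, varied with the replicate. Of 18 such genes tested, limma called 0 in any of the 3 comparisons, with an unadjusted p below 0.05 for 2 in OA against MDI, 1 in OA_T0 against OA and 0 in OA_T0 against MDI. Their mean log2 level relative to MDI was 0.04, -0.34 and 0.20 in OA_T0 replicates 1 to 3, and between -0.06 and 0.05 in the OA and MDI libraries. OA_T0 replicate 2, the library of its group with the highest mitotic genes, also had the lowest histone and S-phase levels of that group, at -0.34 and -0.13, and OA_T0 replicate 3 the highest, at 0.20 and 0.10. The S-phase level of OA_T0 replicate 2 was within the range of the OA libraries. The part of this difference between libraries in the OA_T0 results was not tested.

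The elements described above were not more common in the promoters of the genes that rose. Among the 18 genes with a promoter that rose in OA against MDI, 12 had a CHR match (66.7%) and 13 a CCAAT match (72.2%). Among the 29 that did not pass, 24 had a CHR match (82.8%) and 22 a CCAAT match (75.9%). Of the 8 promoters shown, those of Cenpf, Ccnb2, Aurka and Plk1 belong to genes that rose in OA against MDI, and those of Mki67, Cenpa, Kif11 and Prc1 to genes that did not pass there. The 8 were taken by their adjusted p in that comparison, so this split says nothing about the elements.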

How the data were processed

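RNA of 9 libraries from 3T3-L1 cells was sequenced after poly(A) selection with strand-specific chemistry, per the labels' protocols. The deposited values are a signal per gene, normalised counts that are not whole numbers. The submitters' processing notes list DESeq2, HTSeq, TopHat and CASAVA 1.8.2 beside genome build mm9, without saying what each did. Low values piled up on multiples of 1 step per library, but only 63.1% to 68.9% of values between 5 and 50 steps were whole within 0.05 of a step, so whole reads were not recovered and no count test was used. Depth was estimated as a library's total over its step, and 3 fragments gave the floor, which covers counting error only. Reads shared by near-identical paralogs cannot be separated.

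The fit used log2(value + 1) of the 15002 genes whose mean was at least 10, in limma 3.58.1 under R 4.3.3, allowing for an intensity trend and sharing 1 spread among the 3 groups. Two-sided p-values were adjusted by Benjamini-Hochberg over all genes within each comparison, and an adjusted p below 0.05 was a call. Fold changes are given ± SE on this scale, which understates those of low genes. On simulated data with 200 changed genes the fit was tested for recovery of known changes. Exon lengths per gene came from the GENCODE M21 annotation and promoters from a RefSeq table.

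The 58 genes, their roles and the other lists were chosen with earlier results of these data known. Values in every library are given for well-known genes of each role. They are also given for the 3 genes with the smallest adjusted p in a comparison and the gene farthest against the median. Those of Nek2, Knstrn and Hmmr, which rose in OA against MDI, are given outside this rule. Of each other list, up to 4 passing genes with the smallest adjusted p in a comparison are named. Where a count of 5 or fewer left genes outside this limit they were named after their values were seen. Lin54 and Cdkn1a, which did not pass, were also named outside it. Alternatives were pseudocounts of 0.5 and 5, no filter or a mean of at least 50, a fit restricted to the compared groups, equal library totals, quantile normalisation, the replicate number as a block, robust estimation of the spread, and libraries left out.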

Additional observations from a re-analysis of the deposited data

How the results depend on the processing

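Counts of calls moved and directions mostly held. The count of genes that rose in OA against MDI (21) was 2 to 26 with each library left out in turn, 2 with no filter on low values and 14 with the replicate number as a block. The count that fell in OA_T0 against OA (14) was 4 to 28 with each library left out, 3 with no filter, 2 without both OA replicate 1 and OA_T0 replicate 3, 21 with equal library totals and 12 with the replicate block. In OA_T0 against MDI, 0 to 1 were called higher with each library left out. Leaving out a library also leaves fewer samples, and dropping the filter adds many genes to the adjustment. The part of either in these counts was not tested. Over all 20 settings, 2 genes kept the call in OA against MDI (Cenpf and Dlgap5) and 2 in OA_T0 against OA (Bub1b and Cenpf). The median over the 58 genes moved in all of these settings by less than 0.082 on the log2 scale, the SD of library means within groups. That bar is wider than the OA_T0 against MDI median of 0.066 itself, so it says little about that comparison. Same-numbered libraries did not deviate together: their correlations were 0.06, 0.0097 and 0.26 in OA against MDI, -0.08, 0.03 and -0.12 in OA_T0 against OA and -0.13, -0.04 and -0.26 in OA_T0 against MDI, and 1 pair, number 3 in OA and MDI, correlated best with its own number. The numbers were therefore not taken as pairs.

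Over the 20 settings, 0 of the 21 genes called in OA against MDI and 0 of the 14 called in OA_T0 against OA changed sign. Of the genes not called, 5 did in OA against MDI, 8 in OA_T0 against OA and 33 in OA_T0 against MDI, and the cause was not tested. The values below cover only the genes that the rule for values in every library picked in that comparison. With quantile normalisation, the sign turned to -0.00296 for Ska1 in OA against MDI, 0.0067 for Ube2c in OA_T0 against OA and -0.0047 for Ccna2 and -3.8e-05 for Anln in OA_T0 against MDI. Without both OA replicate 1 and OA_T0 replicate 3, the sign turned to 0.039 for Incenp in OA against MDI and 0.0016 for Cenpe, 0.0032 for Ndc80, 0.0046 for Kif11 and 0.024 for Ect2 in OA_T0 against MDI. With equal library totals, the sign turned to -0.0029 for Cdk1 in OA_T0 against OA and -0.031 for Ccna2, -0.022 for Cenpf, -0.029 for Anln and -0.00703 for Foxm1 in OA_T0 against MDI. The leave-one-out range in OA against MDI was -0.0202 to 0.093 for Ska1, -0.0495 to 0.0066 for Foxm1 and -0.058 to 0.039 for Incenp. The leave-one-out range in OA_T0 against OA was -0.00098 to 0.045 for Cdk1 and -0.079 to 0.029 for Ube2c. The leave-one-out range in OA_T0 against MDI was -0.0505 to 0.057 for Ccna2, -0.043 to 0.17 for Cdc25c, -0.0097 to 0.17 for Plk1, -0.0044 to 0.098 for Bub1, -0.12 to 0.25 for Cenpa and -0.11 to 0.023 for Cenpe. There, it also was -0.068 to 0.082 for Cenpf, -0.049 to 0.017 for Ndc80, -0.047 to 0.0046 for Kif11, -0.067 to 0.18 for Kif20a, -0.065 to 0.063 for Anln and -0.046 to 0.0059 for Top2a. There, it also was -0.052 to 0.032 for Mki67, -0.0082 to 0.24 for Cdc20 and -0.11 to 0.024 for Ect2.

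At 3 libraries a group and SEs of 0.05 to 0.14 on the log2 scale, differences of the size seen here lie near the threshold. Depth did not set a floor, since all 58 genes lay far above 3 fragments.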
